A study of Rattus norvegicus with 12 samples.

Results

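The genes described here encode histones and the proteins that modify, move or read chromatin, together with subunits of Mediator. They are the rows of the deposited table whose gene name begins with a symbol of these families, such as Hist, H1f, H2af, H3f3, Hdac, Sirt, Kat, Ncoa, Kmt, Setd, Kdm, Smarc, Arid, Chd, Cbx, Ing, Dnmt, Tet or Med, with Crebbp, Ep300, Ezh1 and Ezh2. The rule used names alone and no measured value, and it took 109 of the 9694 rows, which carry 108 names because H3f3b stands on 2 rows. RNA was sequenced from INS-1, rat insulinoma cells that serve as a β-cell model, in 12 libraries, 3 in each of 4 groups. CCIB cells received I-BET762 at 500 nM with the cytokine cocktail, CCVC cells the vehicle with the cocktail, IB cells I-BET762 without cytokines, and VC cells the vehicle without cytokines. I-BET762 (I-BET below) blocks the bromodomains of the BET proteins, and it or the vehicle was present for 48 h before the cocktail was added, which held IFN-γ at 100, TNF-α at 25 and IL-1β at 10 ng/mL. The cytokines were present for 8 h by the treatment protocol and the study's text on the sequencing, although the design text gives the last 24 h of 72 h. INS-1 is a single transformed line that divides in culture, unlike most adult β-cells.

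DNA is wound around octamers of the core histones H2A, H2B, H3 and H4, and linker histones of the H1 family bind between them. Most histone genes are transcribed during DNA replication and give mRNAs without a poly(A) tail, while variant histones such as H2A.Z and the replacement form of H3 are made throughout the cell cycle from ordinary polyadenylated mRNAs. Acetyltransferases and methyltransferases add marks to histone tails, deacetylases and demethylases take them off, and remodellers slide or exchange nucleosomes. BET proteins bind acetylated lysines through their bromodomains, so the enzymes that add and remove acetyl groups set the marks that I-BET keeps BET proteins from binding.

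Each group has a single deposited value per gene, the mean of its 3 libraries in FPKM (fragments scaled to gene length and to the size of the library). No value per library was used, so none of the values below has an SD, no test between groups could be run, and no difference is said to be larger than the spread between replicates. A log2 ratio is taken between group values after adding 1 FPKM, which understates the difference of low genes, and genes called higher or lower below are those with a ratio of 1.5-fold or more (0.58 on the log2 scale). Ratios were used for rows averaging 1 FPKM or more across the groups, which 107 of the 109 members had. The exceptions were Hdac9, a deacetylase of class IIa (0.43 FPKM in CCIB, 0.427 in CCVC, 0.624 in IB and 0.959 in VC), and Arid4b, a partner of a deacetylase complex (0.804, 0.492, 0.523 and 0.278 FPKM in the same order). All rows of the table are genes the authors had called at an adjusted p under 0.05, so a family member that is not listed, such as Dnmt1 or Tet2, is not analysed here. Ins1, which encodes insulin 1, was at 20738 FPKM in CCIB, 10243 in CCVC, 26722 in IB and 11528 in VC. The β-cell markers differed between the groups. Of 7 listed, 4 were lower and none higher in CCVC against VC (median log2 ratio -1.01), namely Nkx6-1 (-1.91), Mafa (-1.78), Pdx1 (-1.28) and Iapp (-1.01). In CCIB against IB 5 of the 7 were lower, in IB against VC 5 were higher and in CCIB against CCVC 4 were higher, and the part of this in the members' values was not tested. Of 16 markers of leucocytes, endothelium, mesenchyme, exocrine pancreas and other islet cells, the table lists Gcg, the glucagon gene (675 FPKM in CCIB, 343 in CCVC, 1240 in IB and 636 in VC), and Sox9, at or below 0.590 FPKM. The part of Gcg-positive cells in the results was not tested, and in bulk RNA fewer cells of a type cannot be told apart from less RNA per cell.

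Hdac11 stood apart from all other members. It encodes the only class IV deacetylase, an enzyme that also removes long fatty acyl groups from lysines, and lies on chromosome 4 from 187747332 to 187764590 on the minus strand (ENSRNOG00000006824, coordinates as deposited, with the build not named in the table). It was at 234 FPKM in CCIB, 115 in CCVC, 21.7 in IB and 20.0 in VC. Both cytokine groups lay far above both groups without cytokines, and the highest value was the one with cytokines and I-BET together. The log2 ratio was 2.47 for CCVC against VC, which placed Hdac11 at rank 75 of 8795 rows, and 3.37 for CCIB against IB, at rank 35. I-BET alone gave a log2 ratio of 0.12 against VC, while CCIB against CCVC gave 1.01, at rank 49, so the log2 ratio with I-BET was 0.90 larger in the presence of cytokines. No other member reached a ratio of 2-fold upwards between the cytokine groups and their controls.

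Across all members, the cytokine difference was modest in number and the I-BET difference smaller. In CCVC against VC, 11 of 107 members were higher and 9 were lower, against a background of 13.9% of all 8795 rows higher and 10.2% lower (24.1% in either direction). The members' shares of 10.3% and 8.41% were thus below those of all rows. The median log2 ratio of members was 0.14, against -0.01 over all rows. In CCIB against IB, the cytokine difference in the presence of I-BET, 11 members were higher and 15 lower, with a background of 12.9% in each direction (25.9% together) and members' shares of 10.3% and 14.0%. In IB against VC, 7 members were higher and 1 was lower, against backgrounds of 4.96% and 10.5% (15.4% together), and the single lower gene is 0.935% of the members. In CCIB against CCVC, 2 were higher and 4 lower, against backgrounds of 3.4% and 11.6%. Few members were thus lower with I-BET, in a table where lower genes outnumber higher ones in both I-BET comparisons. The split of CCIB against CCVC turned with the scaling, to 6 higher and 3 lower when log2 ratios were centred on the median of all rows and to 4 and 4 when groups were scaled to a common upper quartile. Of the 107 members, 37 passed 1.5-fold in at least 1 of the comparisons or in the difference between I-BET effects, and 70 in none.

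**Figure D1:**
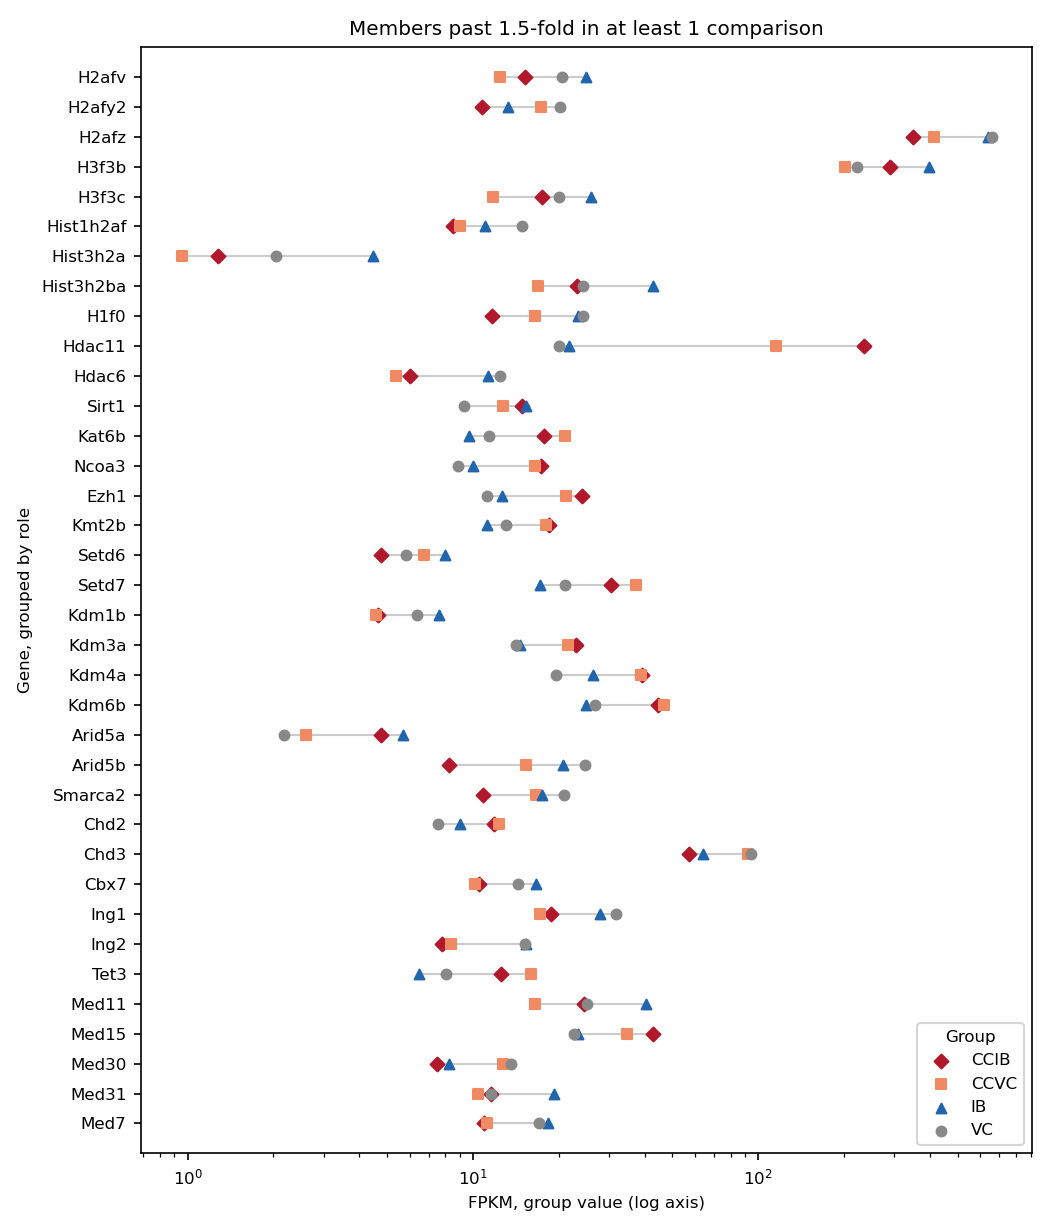
Of the members past 1.5-fold in at least 1 comparison, 36 are shown by group value in FPKM on a log axis, with a diamond for CCIB, a square for CCVC, a triangle for IB and a circle for VC, and genes ordered by role. Hdac11 spans 20.0 FPKM in VC to 234 in CCIB, the widest range of these genes, and the H3f3b row shown is the one on chromosome 10.

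Comparisons that hold separate libraries allowed each difference to be read again. CCIB against IB and CCVC against VC share no library, and 9 of the 11 members higher in CCVC against VC (81.8%) were among the 11 higher in CCIB against IB (81.8%). Among them are Hdac11, Kat6b, Ncoa3, Ezh1, Setd7, Kdm6b, Tet3 and Med15. Over all rows, 72.9% of the genes higher in CCVC against VC were also higher in CCIB against IB. Of the 9 members lower in CCVC against VC, 6 (66.7%) were also lower in CCIB against IB, where they make up 40.0% of the 15 lower members. They are H2afz, H2afv, Hist3h2a, Hdac6, Arid5b and Ing2. Over all rows these shares were 73.6% and 58.2%. No member passed 1.5-fold in opposite directions, and 99 of 107 members had the same sign in both comparisons (92.5%, against 88.3% of all rows). The Pearson correlation of the log2 ratios was 0.93 across the 107 members and 0.89 across all rows (Spearman 0.91 and 0.88), as a description of genes that share libraries and length scaling within each comparison. For I-BET, IB against VC and CCIB against CCVC also share no library. Here 90 of 107 members had the same sign (84.1%, against 80.7% of all rows), with a Pearson correlation of 0.74 across members and 0.76 across all rows (Spearman 0.79 and 0.78), but only Arid5a was higher and only Med30 lower by 1.5-fold in both. That is 14.3% of the 7 members higher in IB against VC and the only lower one, against 37.6% of the higher and 66.9% of the lower genes over all rows.

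**Figure D2:**
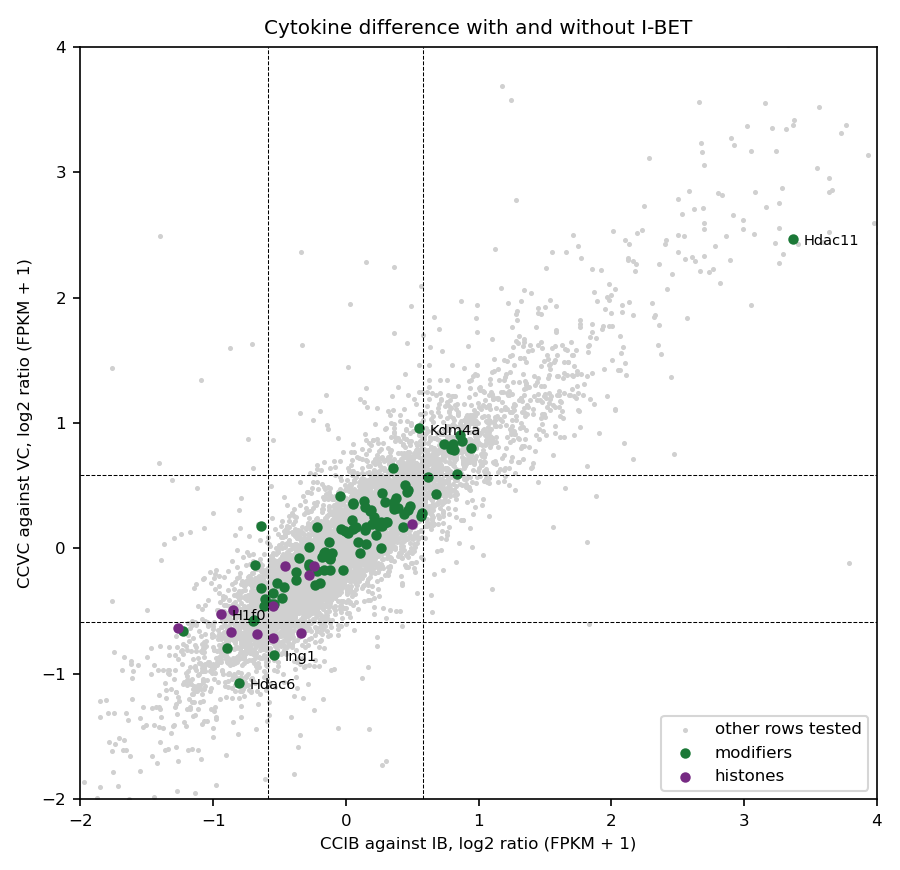
Each point is a gene, with the log2 ratio of CCIB against IB on the horizontal axis and of CCVC against VC on the vertical axis, both after adding 1 FPKM. Grey points are other rows tested, green points modifiers and purple points histones, dashed lines mark 1.5-fold, and a few other rows fall outside the axes. Most members lie near the diagonal and inside the dashed lines, and Hdac11 lies at 3.37 and 2.47.

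Core histone genes had ratios below 0 with cytokines, about as many of them short of 1.5-fold as past it. All 10 core histone rows had a log2 ratio below 0 in CCVC against VC (median -0.57), where 5 were lower by 1.5-fold. The same held for all 10 in CCIB against IB (median -0.55), where 4 were lower by 1.5-fold. Of all 8795 rows, 4426 fell below 0 in the first of these comparisons and 4656 in the second. Lower by 1.5-fold were 10.2% and 12.9% of all rows. The core histone gene models are shorter than 2000 bases, and short rows of the whole table also had medians below 0. In the same order, these were -0.27 and -0.36 under 1000 bases, and -0.10 and -0.17 from 1000 to 2000 bases. The part of gene length was not tested. With I-BET alone, 3 of the 10 core histone rows were higher in IB against VC, none was lower, and the median was 0.31. In CCIB against CCVC none of the 10 was higher, 1 was lower (H2afy2), and the median was 0.25. In each I-BET comparison 4 of the 10 had a ratio below 0. With upper-quartile scaling it was 2 of the 10 in IB against VC and 4 in CCIB against CCVC. Of all rows, 4.96% were higher and 10.5% lower by 1.5-fold in IB against VC. In CCIB against CCVC these shares were 3.4% and 11.6%. H2afz, which encodes the variant H2A.Z found at promoters, was the most abundant, at 349 FPKM in CCIB, 414 in CCVC, 636 in IB and 657 in VC. Both cytokine groups were below both groups without cytokines, with log2 ratios of -0.66 for CCVC against VC and -0.86 for CCIB against IB. H2afv, whose product is a second form of H2A.Z, was at 15.3 FPKM in CCIB, 12.4 in CCVC, 24.9 in IB and 20.5 in VC, so the order of the cytokine groups and the others was the same at a much lower level. Hist3h2a, an H2A gene, was at 1.28 FPKM in CCIB, 0.953 in CCVC, 4.48 in IB and 2.04 in VC, and its neighbour Hist3h2ba, an H2B gene on the same chromosome, was at 23.2, 17.0, 42.7 and 24.3 FPKM in the same order. Both were highest in IB and lowest in CCVC, with log2 ratios of 0.85 and 0.79 for IB against VC. For Hist3h2a the difference between the I-BET effects with and without cytokines was -0.63, although its levels are near the minimum used. Hist1h2af, another H2A gene, was at 8.48 FPKM in CCIB, 8.98 in CCVC, 11.0 in IB and 14.9 in VC, highest in VC and not in IB.

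The upstream sequences of these genes are printed because they hold a motif that histone promoters are known for, the CCAAT box, several times over. The 250 bases before the annotated start were read from RefSeq (build GRCr8) for 10 distinct histone genes, and 6 of these held 3 or more copies of CCAAT on either strand, namely H2afz, H2afv, Hist3h2a, Hist3h2ba, Hist1h2af and H3f3b. Of all 27457 promoter windows of this length, 2.73% held as many, and of the windows of 77 modifier genes 5 did (6.49%). The number of copies was chosen as a measure after the sequences were seen. In the sequences below, capitals mark CCAAT or its reverse complement and, where present, ATTTGCAT, the octamer known from H2B promoters, and TATAAA, on either strand. The windows are chr2:229028845-229029094 on the plus strand for H2afz, chr14:85526069-85526318 on the minus strand for H2afv, chr10:44233033-44233282 on the plus strand for Hist3h2a and chr10:44225171-44225420 on the plus strand for Hist3h2ba, each written 5′ to 3′ towards the gene.
H2afz: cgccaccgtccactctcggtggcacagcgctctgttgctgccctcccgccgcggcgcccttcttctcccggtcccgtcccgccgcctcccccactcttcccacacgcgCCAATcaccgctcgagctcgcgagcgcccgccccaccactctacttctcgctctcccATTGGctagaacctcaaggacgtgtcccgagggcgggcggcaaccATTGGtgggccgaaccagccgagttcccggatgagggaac
H2afv: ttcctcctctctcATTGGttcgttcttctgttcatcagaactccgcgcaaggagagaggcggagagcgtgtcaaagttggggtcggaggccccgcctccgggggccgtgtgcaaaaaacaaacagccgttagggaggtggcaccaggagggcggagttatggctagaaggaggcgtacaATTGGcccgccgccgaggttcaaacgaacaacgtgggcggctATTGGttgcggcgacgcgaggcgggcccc
Hist3h2a: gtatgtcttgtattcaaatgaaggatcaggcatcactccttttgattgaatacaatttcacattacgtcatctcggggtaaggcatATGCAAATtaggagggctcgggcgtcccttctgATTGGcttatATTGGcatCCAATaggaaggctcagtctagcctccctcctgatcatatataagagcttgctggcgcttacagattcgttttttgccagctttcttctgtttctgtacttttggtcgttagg
Hist3h2ba: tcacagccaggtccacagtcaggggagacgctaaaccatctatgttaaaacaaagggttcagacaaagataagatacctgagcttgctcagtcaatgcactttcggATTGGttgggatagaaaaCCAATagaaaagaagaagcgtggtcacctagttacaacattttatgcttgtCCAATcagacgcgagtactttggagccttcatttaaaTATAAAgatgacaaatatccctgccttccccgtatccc
These 4 windows hold 3 copies of CCAAT each, and H1f0, H1fx, H2afy and H2afy2 hold none in theirs. A match is a run of letters and not a measured binding site.

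The replacement form of histone H3 is encoded by genes whose proteins are nearly the same, so reads of the H3f3 rows could be split among them and their values are uncertain one by one. The H3f3b row on chromosome 13 (ENSRNOG00000003220) was at 389 FPKM in CCIB, 307 in CCVC, 570.4 in IB and 423 in VC. The H3f3b row on chromosome 10 (ENSRNOG00000006532) was at 290.1 FPKM in CCIB, 201 in CCVC, 398 in IB and 223 in VC. H3f3c was at 17.5, 11.8, 26.0 and 20.0 FPKM in the same order. All 3 rows were highest in IB and lowest in CCVC. The 2 macroH2A genes, whose large H2A variants mark silent chromatin, did not share this order. H2afy was at 190.3 FPKM in CCIB, 209.8 in CCVC, 225 in IB and 231 in VC, and H2afy2 at 10.8, 17.3, 13.2 and 20.2 FPKM, where the groups with I-BET lay below those without, with log2 ratios of -0.63 for CCIB against CCVC and -0.57 for IB against VC. The linker histones differed from each other. H1f0, the linker histone of cells that have stopped dividing, was at 11.7 FPKM in CCIB, 16.5 in CCVC, 23.4 in IB and 24.2 in VC. H1fx was at 229 FPKM in CCIB, 154 in CCVC, 162 in IB and 135 in VC, the only histone row of 12 that was above its control in both cytokine comparisons.

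**Figure D3:**
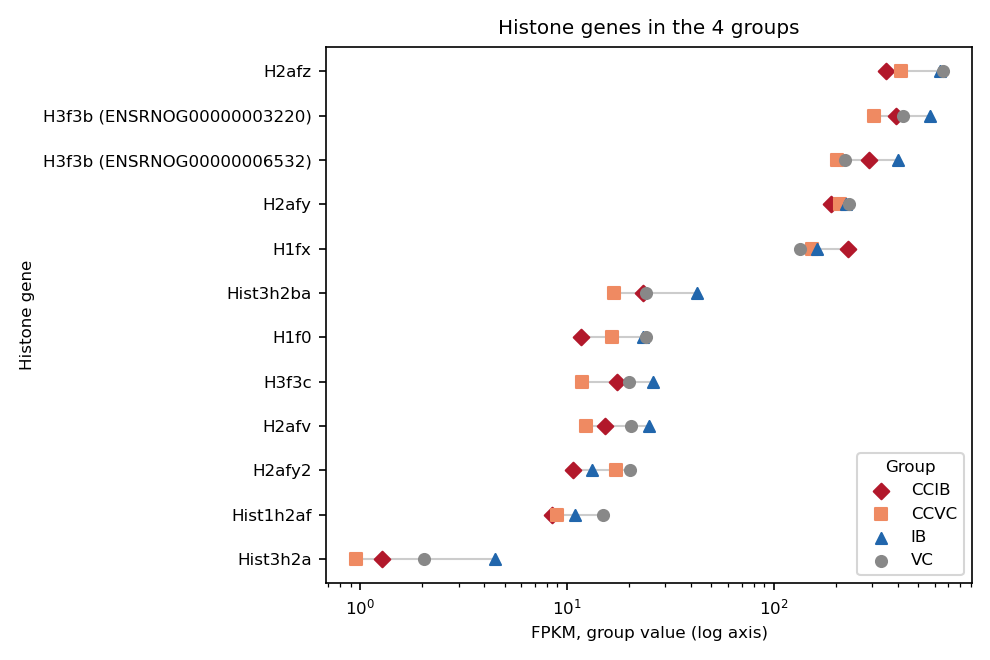
The 12 histone rows are ordered by mean level, with FPKM on a log axis and a diamond for CCIB, a square for CCVC, a triangle for IB and a circle for VC. In all rows but H1fx the CCVC point lies left of the VC point, and Hist3h2a is the lowest row, at 0.953 FPKM in CCVC and 2.04 in VC.

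Most core histone genes of the genome are transcribed in S phase, so 10 listed genes of histone mRNA processing and DNA replication were set beside the core histones. Most core histone rows listed here are instead variants, a class made throughout the cell cycle (H2afz, H2afv, H2afy, H2afy2 and the H3f3 rows). Slbp, which encodes the protein that binds the end of replication-dependent histone mRNAs, was at 44.4 FPKM in CCIB, 48.7 in CCVC, 65.3 in IB and 65.5 in VC. Pcna, the clamp of the replication fork, was at 141 FPKM in CCIB, 184 in CCVC, 229.8 in IB and 255 in VC, and E2f1, an activator of S-phase genes, at 13.7, 12.3, 23.9 and 20.6 FPKM. For these genes both cytokine groups lay below both groups without cytokines, but Slbp reached 1.5-fold in neither cytokine comparison and Pcna only in CCIB against IB (-0.70). The helicase subunit genes Mcm2, Mcm3, Mcm5 and Mcm6 had log2 ratios from -0.08 to 0.09 for CCVC against VC, and for CCIB against CCVC the ratios ran from -0.65 to -0.48. Of the 10 genes, 1 was lower and none higher in CCVC against VC (median log2 ratio -0.11). Of all rows, 10.2% were lower and 13.9% higher in that comparison. In IB against VC 1 was lower (Lsm11, a part of the histone processing complex, at 5.73 FPKM in IB and 11.5 in VC) and none higher, the median being -0.33. Of all rows, 10.5% were lower and 4.96% higher in IB against VC. The core histones, most of them variants, had a median of 0.31 in that comparison. The part of the cell cycle in the histone values was not tested.

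Unlike Hdac11, the other zinc-dependent deacetylases with enough signal, Hdac1, Hdac2, Hdac3, Hdac5 and Hdac6, had ratios below 0 in both cytokine comparisons. Hdac1 and Hdac2 are the catalytic subunits of the Sin3, NuRD and CoREST corepressor complexes. Hdac1 was at 93.0 FPKM in CCIB, 96.9 in CCVC, 138 in IB and 132 in VC, and Hdac2 at 47.0, 57.0, 69.1 and 73.1 FPKM in the same order, log2 ratios of -0.44 and -0.35 for CCVC against VC that did not reach 1.5-fold. Hdac3, a class I deacetylase that nuclear receptor corepressors recruit, was at 30.8 FPKM in CCIB, 28.2 in CCVC, 40.4 in IB and 32.3 in VC. Hdac6, a mostly cytoplasmic enzyme that deacetylates tubulin, was lower by 1.5-fold in both cytokine comparisons, at 6.03 FPKM in CCIB, 5.38 in CCVC, 11.3 in IB and 12.4 in VC, and its log2 ratio of -1.07 in CCVC against VC was the lowest of the 107 members. It lies on chromosome X from 16178130 to 16198381 (ENSRNOG00000047281). Among the sirtuins, which use NAD as a cofactor, Sirt1 was lowest in VC, at 14.8 FPKM in CCIB, 12.8 in CCVC, 15.3 in IB and 9.33 in VC, with a log2 ratio of 0.66 for IB against VC. Sirt2, which also deacetylates tubulin, was highest in VC, at 23.9, 31.3, 28.3 and 38.4 FPKM in the same order. Of the 10 deacetylases and sirtuins with enough signal, 1 was higher and 1 lower in CCVC against VC, 7 had a ratio below 0, and the median was -0.22. Of all 8795 rows, 13.9% were higher and 10.2% lower in that comparison, and 4426 had a ratio below 0.

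Acetyltransferases and nuclear receptor coactivators had mostly positive ratios with cytokines. In CCVC against VC, 13 of 14 had a log2 ratio above 0, with a median of 0.31, but only 2 reached 1.5-fold. In CCIB against IB it was 11 of 14, with a median of 0.32, and again 2 reached 1.5-fold. Over all 8795 rows, 4369 had a ratio above 0 in CCVC against VC, and 4139 did in CCIB against IB. Higher by 1.5-fold were 13.9% and 12.9% of all rows in the same order. Kat6b, the catalytic subunit of a MYST complex that acetylates histone H3, was at 17.7 FPKM in CCIB, 21.1 in CCVC, 9.70 in IB and 11.4 in VC. Ncoa3, a coactivator of the p160 family, was at 17.3 FPKM in CCIB, 16.5 in CCVC, 9.99 in IB and 8.84 in VC, so both genes had their 2 highest values in the cytokine groups. Crebbp and Ep300, the paralogous CBP and p300 acetyltransferases whose marks at enhancers are bound by BET proteins, differed less. Crebbp was at 11.4 FPKM in CCIB, 11.5 in CCVC, 7.38 in IB and 9.42 in VC, and Ep300 at 14.7, 14.9, 13.2 and 11.6 FPKM. The deposited gene model of Ep300 is 1059 bases long and that of Crebbp 7506. Their levels are thus not directly comparable, and Ep300 counts as a short gene in the length correlations below. The SAGA enzyme gene Kat2a was at 37.9 FPKM in CCIB, 50.7 in CCVC, 29.3 in IB and 39.8 in VC, and its paralog Kat2b at 9.48, 10.3, 6.04 and 8.28 FPKM, and neither reached 1.5-fold in an I-BET comparison. Ncoa2, another p160 coactivator, had the lowest log2 ratio of the list in CCIB against CCVC (-0.57), at 15.6 and 23.7 FPKM. In CCVC against VC the single ratio below 0 was that of Ncoa7, a gene with an oxidation resistance domain, at 63.6 FPKM in CCIB, 74.5 in CCVC, 88.2 in IB and 92.3 in VC. In CCIB against IB, Ncoa7, Ncoa4 and Ncoa5 had ratios below 0 (-0.46, -0.28 and -0.01). Ncor1, a corepressor of nuclear receptors, was at 52.1 FPKM in CCIB, 63.0 in CCVC, 58.6 in IB and 70.9 in VC, short of 1.5-fold in every comparison.

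Among methyltransferases, the 2 catalytic subunits of Polycomb repressive complex 2 behaved differently with cytokines. Ezh1, the form that predominates in cells that do not divide, was at 24.1 FPKM in CCIB, 21.1 in CCVC, 12.7 in IB and 11.2 in VC, with log2 ratios of 0.86 for CCVC against VC and 0.87 for CCIB against IB. Ezh2, the form of dividing cells, was at 23.7 FPKM in CCIB, 28.4 in CCVC, 29.0 in IB and 31.1 in VC. Ezh2 was well above Ezh1 in IB and in VC, and the paralogs were close in CCIB. Setd7, which adds a single methyl group to histone H3 and to other proteins, was at 30.5 FPKM in CCIB, 37.2 in CCVC, 17.2 in IB and 21.0 in VC. Kmt2b, a methyltransferase of the MLL family, was at 18.5 FPKM in CCIB, 18.0 in CCVC, 11.2 in IB and 13.1 in VC, and passed 1.5-fold only in CCIB against IB (0.68). In CCVC against VC, 8 of the 9 methyltransferases had a ratio above 0, with a median of 0.37. In CCIB against IB 6 of the 9 did, with a median of 0.38, 3 being higher by 1.5-fold and 1, Setd6, lower (-0.64). Of all 8795 rows, 4369 had a ratio above 0 in the first of these comparisons and 4139 in the second. In CCIB against IB, 12.9% of all rows were higher by 1.5-fold and 12.9% lower. Ezh1, Kmt2b, Setd1b, Setd2 and Setd5 have gene models longer than 4000 bases. In CCVC against VC, all rows from 4000 to 6000 bases had a median of 0.14 and longer ones of 0.18. The part of gene length was not tested. Setd6, which in human cells methylates the NF-κB subunit RelA, had the second largest difference between its I-BET effects of all members. It was at 4.78 FPKM in CCIB, 6.72 in CCVC, 7.99 in IB and 5.82 in VC, log2 ratios of 0.40 for IB against VC and -0.42 for CCIB against CCVC that differ by -0.82. Neither ratio reached 1.5-fold on its own, and the difference was not tested. Only Hdac11, Setd6 and Hist3h2a passed 1.5-fold in this difference (1 higher and 2 lower), against backgrounds of 2.01% higher and 2.84% lower (4.86% together).

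The demethylases with the largest cytokine differences upwards were of the JmjC type, as were all those listed but Kdm1b. Kdm2b, also of that type, had a log2 ratio of -0.28 in CCVC against VC. Kdm6b, which removes the Polycomb mark from histone H3 and is induced by inflammatory signals in mouse macrophages, was at 44.4 FPKM in CCIB, 46.9 in CCVC, 24.9 in IB and 26.7 in VC. Kdm4a, which acts on methylated histone H3 in heterochromatin and gene bodies, was at 39.3 FPKM in CCIB, 39.0 in CCVC, 26.4 in IB and 19.6 in VC, and its ratio of 0.96 in CCVC against VC was second to Hdac11 among members. Kdm3a, known as a hypoxia-responsive enzyme, was at 22.9 FPKM in CCIB, 21.5 in CCVC, 14.6 in IB and 14.2 in VC. For these genes both cytokine groups lay above both groups without cytokines, and CCIB and CCVC were close to each other. Kdm1b, a flavin-dependent demethylase of another enzyme class, went the other way, at 4.65 FPKM in CCIB, 4.57 in CCVC, 7.60 in IB and 6.39 in VC. Of 11 demethylases, 2 were higher and none lower in CCVC against VC, and 2 were higher and 1 lower in CCIB against IB. None passed 1.5-fold in IB against VC or in CCIB against CCVC. Of all rows, 13.9% were higher and 10.2% lower in CCVC against VC, and 12.9% each way in CCIB against IB. In either direction, 15.4% of all rows passed in IB against VC and 15% in CCIB against CCVC. The DNA methylation genes listed were the methyltransferase gene Dnmt3a and Tet3, which oxidises methylated cytosine. Tet3 was at 12.6 FPKM in CCIB, 15.97 in CCVC, 6.46 in IB and 8.08 in VC, log2 ratios of 0.90 for CCVC against VC and 0.86 for CCIB against IB. Dnmt3a was at 27.5, 26.6, 20.2 and 23.5 FPKM in the same order, in the same direction at a smaller size.

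**Figure D4:**
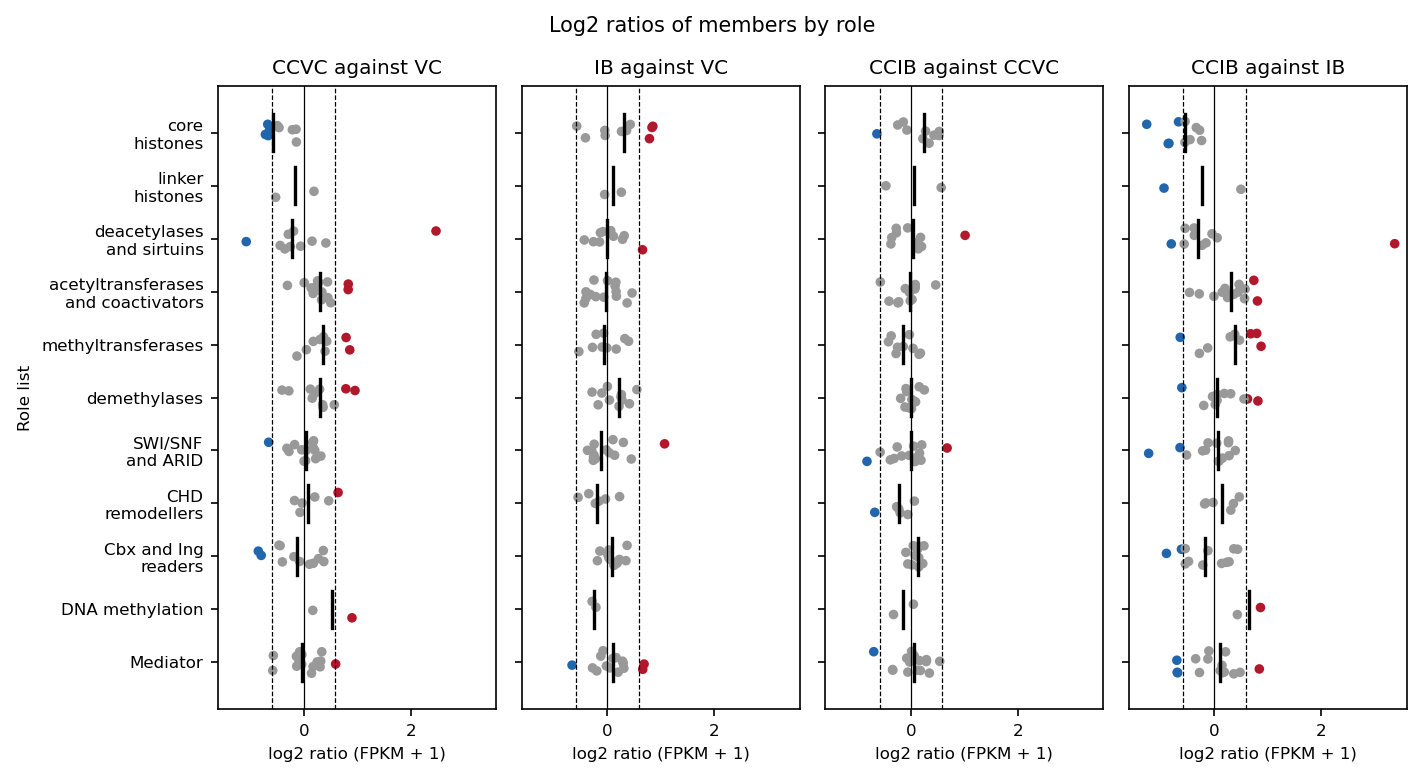
Each point is a member, placed by its log2 ratio after adding 1 FPKM in each of the 4 comparisons and by its role list, for 11 role lists. Red points are 1.5-fold or more higher and blue points 1.5-fold or more lower, dashed lines mark that size, and black bars are list medians. In CCVC against VC the core histones have a median of -0.57 and the acetyltransferases and coactivators one of 0.31.

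The SWI/SNF remodelling complex moves nucleosomes with the ATPases Smarca4 (BRG1) or Smarca2 (BRM). Among its subunits that the name rule took, only Smarca2 passed 1.5-fold. Actl6b, a subunit outside the rule, passed it with I-BET and is given further below. Smarca4 was at 90.4 FPKM in CCIB, 87.2 in CCVC, 68.7 in IB and 69.6 in VC, and Smarca2 at 10.8, 16.6, 17.5 and 20.9 FPKM. The 2 ATPases thus ran in opposite directions, with log2 ratios of 0.39 and -0.64 for CCIB against IB. Smarce1, the most abundant member of the list, was at 105 FPKM in CCIB, 96.7 in CCVC, 102 in IB and 82.7 in VC, and Arid1a at 16.5, 18.7, 13.5 and 16.4 FPKM. The larger differences among these members were in 2 DNA-binding ARID proteins outside the complex. Arid5a, which in mouse cells binds and stabilises mRNAs of inflammatory cytokines, was at 4.75 FPKM in CCIB, 2.59 in CCVC, 5.69 in IB and 2.19 in VC. Both I-BET groups lay above both groups without I-BET, with log2 ratios of 1.07 for IB against VC, at rank 58 of 8795 rows, and 0.68 for CCIB against CCVC. Arid5b, listed in the table as a processed transcript, was at 8.24 FPKM in CCIB, 15.3 in CCVC, 20.6 in IB and 24.7 in VC. It was lower in both cytokine comparisons and in CCIB against CCVC, while its log2 ratio of -0.25 in IB against VC did not reach 1.5-fold. Its log2 ratio of -0.82 in CCIB against CCVC was the lowest of the 107 members. Among CHD remodellers, Chd3, the ATPase of the NuRD complex, was at 57.2 FPKM in CCIB, 91.9 in CCVC, 64.1 in IB and 94.0 in VC, with log2 ratios of -0.67 for CCIB against CCVC and -0.55, short of 1.5-fold, for IB against VC, and Chd2 was at 11.8, 12.3, 9.01 and 7.53 FPKM, with a ratio of 0.64 for CCVC against VC.

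Readers of the Cbx and Ing families included the next lowest ratios of CCVC against VC after Hdac6. Ing1 and Ing2 bind methylated histone H3 and bring a Sin3 deacetylase complex to it. Ing1 was at 18.8 FPKM in CCIB, 17.2 in CCVC, 27.9 in IB and 31.8 in VC, and Ing2 at 7.79, 8.37, 15.4 and 15.3 FPKM, ratios of -0.85 and -0.79. Ing3 of the NuA4 acetyltransferase complex and Ing4 of the HBO1 complex had log2 ratios of 0.38 and 0.11 in CCVC against VC. Of the heterochromatin proteins, Cbx1 (HP1β) was at 209 FPKM in CCIB, 206 in CCVC, 154 in IB and 169.7 in VC, Cbx3 (HP1γ) at 103, 107, 144 and 141 FPKM, and Cbx5 (HP1α) at 89.0, 84.2, 96.9 and 88.8 FPKM. Cbx1 and Cbx3 thus differed in opposite directions with cytokines, short of 1.5-fold. Cbx7, a Polycomb reader, was at 10.5 FPKM in CCIB, 10.2 in CCVC, 16.7 in IB and 14.4 in VC, and passed 1.5-fold only in CCIB against IB (-0.62, and -0.57 with ratios centred on their median).

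Mediator, which links transcription factors to RNA polymerase II and works with BET proteins at enhancers, had 15 listed subunits and no common direction. Its median log2 ratio was -0.03 in CCVC against VC, 0.10 in IB against VC and 0.06 in CCIB against CCVC. Med30, a head subunit of metazoan Mediator, was lower with I-BET in both states, at 7.48 FPKM in CCIB, 12.7 in CCVC, 8.23 in IB and 13.6 in VC. Med31 and Med11 were the Mediator genes higher by 1.5-fold in IB against VC. Med31 was at 11.5 FPKM in CCIB, 10.4 in CCVC, 19.2 in IB and 11.5 in VC, and Med11 at 24.5, 16.5, 40.5 and 25.2 FPKM, both highest in IB. Med15, the tail subunit that activators contact, was higher in both cytokine comparisons, at 42.6 FPKM in CCIB, 34.7 in CCVC, 23.4 in IB and 22.6 in VC. Med7 was at 11.0 FPKM in CCIB, 11.2 in CCVC, 18.4 in IB and 17.0 in VC. Med1, the subunit that binds nuclear receptors, was at 23.2, 24.1, 19.9 and 20.1 FPKM in the same order. In CCIB against IB, 11 of the 15 subunits passed 1.5-fold in neither direction. Over all rows, 25.9% passed it in either direction in that comparison.

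The members' differences followed the length of the gene model, a property the choice of members did not use. The 11 members higher in CCVC against VC had a median length of 4421 bases, and the 9 lower ones of 1552 bases, with 3195 bases over all members. The Spearman correlation of length and log2 ratio across the 107 members was 0.44 for CCVC against VC (0.21 across all 8795 rows), and for CCIB against IB it was 0.48 (0.24 across all rows). With I-BET the sign was the opposite, at -0.39 in IB against VC and -0.29 in CCIB against CCVC, against -0.01 and 0.04 across all rows. The long genes of the list are mostly enzymes and coactivators such as Kat6b and Tet3, and the short ones include histones and Mediator subunits such as Med11 and Med31. Only 11 members are shorter than 1000 bases, and without them the correlations over 96 members were 0.36, 0.46, -0.44 and -0.27 in the order given. Across the 95 modifiers without histones, they were 0.34 for CCVC against VC and -0.39 for IB against VC. These correlations describe genes measured in the same libraries and scaled by length, so genes are not independent replicates, and the part of library preparation or RNA quality was not tested.

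**Figure D5:**
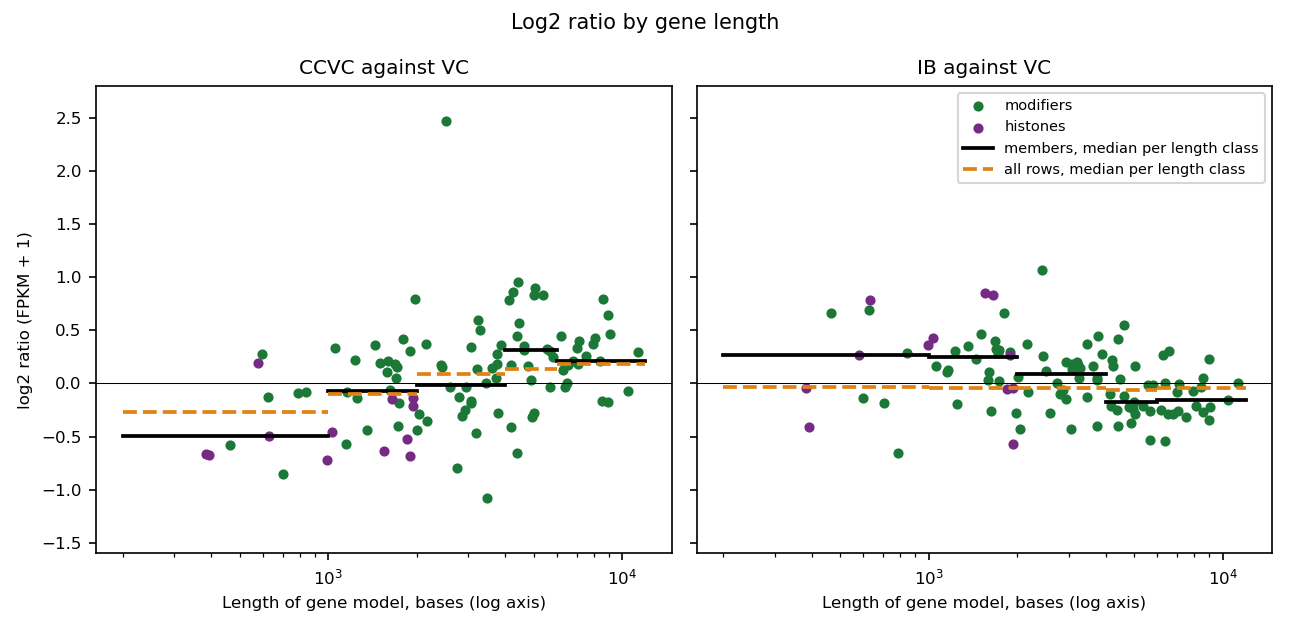
Log2 ratios after adding 1 FPKM are plotted against the length of the gene model in bases on a log axis, for CCVC against VC (left) and IB against VC (right), with modifiers in green and histones in purple. Black bars are medians of members and dashed orange bars medians of all rows within the same length class, and for genes under 1000 bases these are -0.49 and -0.27 in CCVC against VC and 0.26 and -0.03 in IB against VC.

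Other chromatin genes outside the name rule were also read from the table. Of 122 such genes, among them arginine methyltransferases, Polycomb complex 1 and histone chaperones, 72 names were listed, and 73 rows had enough signal. In CCVC against VC 4 were higher and 1 lower (median log2 ratio 0.16), against backgrounds of 13.9% and 10.2% of all rows. In CCIB against IB 6 were higher and none lower, against a background of 12.9% in each direction. All of these counts are smaller shares of the 73 rows than the backgrounds. Mbd1, which binds methylated DNA, was at 83.9 FPKM in CCIB, 116 in CCVC, 51.4 in IB and 54.0 in VC. Smyd5, a SET domain methyltransferase, was at 24.8 FPKM in CCIB, 32.9 in CCVC, 8.99 in IB and 15.1 in VC. Both had log2 ratios above 1 in CCVC against VC (1.09 and 1.07), larger than that of any member but Hdac11. With I-BET, Phf19, an accessory subunit of Polycomb complex 2, was lower in both states, at 4.35 FPKM in CCIB, 9.16 in CCVC, 5.75 in IB and 10.5 in VC, and Actl6b, the neuronal actin-like subunit of SWI/SNF, was higher in both, at 29.4, 17.0, 33.2 and 18.2 FPKM.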

How the data were processed

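RNA of 12 libraries, 3 for each of CCIB, CCVC, IB and VC, was sequenced by the authors (NEBNext Ultra kit, strand setting not stated). HISAT2 is the aligner named. The deposited table, made by the authors, holds 1 FPKM value per gene and group, the mean of the 3 libraries, for 9694 genes called at an adjusted p under 0.05. DESeq2 is named in the labels' processing notes, without a version. The genome build and the counter are not given in the sources used here. The study's methods state a minimum number of reads per sample, but not the depth of each library, and the values are group means, so no counting interval could be given, and 0 columns of single libraries were used. The deposited gene lengths are in bases.

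Log2 ratios were taken after adding 1 FPKM for rows with a mean of at least 1 FPKM (8795 rows kept, 899 left out), for cytokines without (CCVC against VC) and with I-BET (CCIB against IB) and for I-BET without (IB against VC) and with cytokines (CCIB against CCVC), and for the last minus the one before it. No test was possible with 1 value per group. The background is the share of all rows past 1.5-fold. Named genes are the members past 1.5-fold in any comparison, the highest and lowest of each role list, a list of 43 central enzymes (27 listed), and members of other lists past 1.5-fold. Other members given as examples or named for their place in a list, and the values of Slbp, Pcna, Mcm and marker genes, were chosen after their values were seen. Some results are not reported here. Members, lists and roles were chosen with earlier results of these data known. Alternatives were a pseudocount of 0.1 FPKM, no minimum, a minimum of 5 FPKM, centring, upper-quartile scaling, a lower and a higher fold criterion, and leaving out histones. Promoter sequences came from RefSeq (GRCr8), where all 109 rows matched a gene (103 by symbol, 6 by an older name) and 88 had a promoter. The ratios and calls were tested on simulated group values. Python 3.11.15, numpy 2.4.6, pandas 2.3.3 and matplotlib 3.10.9 were used.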

Additional observations from a re-analysis of the deposited data

How the results depend on the processing

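No paired analysis was possible because each group has 1 averaged column, and for the same reason leaving out each replicate was not run. The number of members past 1.5-fold stayed within 1.5 times of 20 in CCVC against VC, 8 in IB against VC, 6 in CCIB against CCVC and 26 in CCIB against IB with no minimum, a minimum mean of 5 FPKM, a pseudocount of 0.1 FPKM, centring or upper-quartile scaling. Without histones, 5 members remained counted in IB against VC. A criterion of 0.32 on the log2 scale gave 47, 29, 26 and 57 members in the same order of comparisons, and 2-fold gave 2, 1, 1 and 3. For the difference between I-BET effects, where 3 members passed 1.5-fold, 0.32 gave 12, 2-fold gave 0 and a pseudocount of 0.1 FPKM gave 5. With the pseudocount of 0.1 FPKM, 10 values of named genes came to pass 1.5-fold and none fell below it. Centring moved 7 above and 3 below, upper-quartile scaling moved 3 above, and no named value past 1.5-fold changed sign. The log2 median of all rows lay between -0.07 and -0.01 in the 4 comparisons. Length correlations without members under 1000 bases, an alternative chosen after seeing the data, kept their sign. Without replicate values, differences near 1.5-fold cannot be told apart from library error.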

Other observations

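Summed over the 109 rows, members held 0.947% of the FPKM of the table in CCIB, 0.939% in CCVC, 0.969% in IB and 0.931% in VC. The 12 histone rows held 33.2% of the members' FPKM in CCIB, 31.0% in CCVC, 43.3% in IB and 39.1% in VC, so the split between histones and modifiers differed between groups more than the sum did. Most of the histone sum in each group came from H2afz and the 2 H3f3b rows, and the values of the H3f3b rows are uncertain one by one. By highest group value, 32 of the 109 members belonged to CCIB, 24 to CCVC, 28 to IB and 25 to VC. Over all 9694 rows these counts were 1982, 2737, 2215 and 2760 in the same order. By lowest group value, 27 members belonged to CCIB, 21 to CCVC, 26 to IB and 35 to VC. Over all rows those counts were 3022, 1869, 2587 and 2216.

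Among the 7 motifs searched in the 250 bases before the start of 87 members, ATTTGCAT stood in 5 (5.75%, against 412 of all 27457 windows), CACGTG in 9 (10.3%, against 5.79%), TTCNNNGAA in 9 (10.3%, against 7.52%), the interferon-stimulated response element core in 3 (3.45%, against 3.29%), an NF-κB palindrome in 2 (2.30%, against 4.77%), TATAAA in 7 (8.05%, against 13.1%) and CCAAT in 31 (35.6%, against 34.3%), on either strand.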
